A study of Homo sapiens with 8 samples.

Results

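Ribosomes are assembled in the nucleolus. RNA polymerase I transcribes the long precursor of the ribosomal RNAs, small nucleolar ribonucleoproteins (snoRNPs) guide its methylation and pseudouridylation, and processing factors cut it and fold it into the small and the large ribosomal subunit. Many of the genes for these steps are textbook targets of MYC, a transcription factor that binds as a dimer with MAX to the E-box sequence and is known as a driver of ribosome production in leukemia cells. Described here were 40 genes of these steps, which had been chosen by symbol for their roles and for the question of how they stood beside a fall of MYC RNA in auxin-resistant cells. All 40 were listed once among 60754 genes of the expression table, and all 40 were among the 15614 genes tested.

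The RNA came from CTCF-AID2 SEM cells. SEM is an established line of human B-cell acute lymphoblastic leukemia (B-ALL) with a rearranged KMT2A gene (KMT2A-r). In all groups both alleles of CTCF carried a miniAID-mClover3 tag, a degron. The auxin analog 5-Ph-IAA recruits this tag to OsTIR1(F74G), a mutant of the plant adaptor OsTIR1. The mutant came from a lentivirus that also confers Zeocin resistance. The 2 clones, C17.2 and C3.2, each had 2 libraries of untreated parental cells and 2 of resistant cells, 8 libraries in all. Resistant cells had been kept to day 36 in 1 µM 5-Ph-IAA, as the labels have it with or without 100 µg/ml Zeocin and as the methods of the study have it with both, and were then taken off the drugs. By the study's sequencing, resistant C17.2 carried a CTCF gene with an early stop codon that removes the tag. In the study's immunoblots, full-length tagged CTCF came back in these cells off the drugs, beside the truncated protein. Resistant C3.2 kept full-length CTCF with a mutation inside the tag, found by sequencing. Each CTCF mutation was met in 1 clone, so that clone and mutation cannot be told apart. The library titles of each clone begin with numbers of a separate run, whose meaning the labels do not give. Nothing in the labels says that the 2 libraries of a group came from separate cultures, and p-values then measure only the spread between these libraries.

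Values are TPM, which express RNA per length of transcript as a share of the library, divided by a factor for each library between 0.893 and 1.16 (scaled TPM). TPM keeps no read depth, so the depth of the libraries is unknown. In bulk RNA, fewer cells that express a gene and less RNA per cell cannot be told apart. Total RNA depleted of ribosomal RNA was sequenced, and 36.0% to 43.3% of a library's TPM fell on protein-coding genes and 31.2% to 37.6% on small nuclear RNAs. Of 9 markers of this leukemia, 8 passed the filter on low values, and DNTT, at most 0.25 TPM, did not. The summed level of the 9 was 643 to 802 TPM, against 1.90 to 6.78 TPM for 10 markers of other blood cells, of which CD3D and PPBP were at 0 in all libraries. The 2 libraries of a group differed in the 40 genes by a median of 0.05 to 0.07 on the log2 scale in 3 groups and by 0.12 in resistant C3.2, where 29 of 40 genes were lower in library 2. Results of C3.2 are therefore also given without each of these libraries.

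MYC RNA fell in both clones. In C17.2 it read 126 and 124 scaled TPM in parental and 78.4 and 70.0 in resistant cells, and in C3.2 158 and 154 in parental and 128 and 126 in resistant cells. The groups did not overlap in either clone, and the fall was the deeper one in C17.2. The log2 fold change was -0.75 (SE 0.06, limma adjusted p = 0.000431) in C17.2 and -0.29 (SE 0.06, limma adjusted p = 0.0285) in C3.2, a difference of -0.46 (SE 0.08, limma adjusted p = 0.0226). The call of the difference was lost on TPM as deposited and without 5 of the 8 libraries in turn, both parental libraries of either clone and resistant library 2 of C3.2, with limma adjusted p of 0.0516 to 0.0922. The exact two-sided permutation test of 2 against 2 libraries gave p = 0.333 in each clone, the smallest it can give. The call of MYC in C3.2 was lost under all 3 other scalings, with limma adjusted p of 0.0775 to 0.125 and log2 fold changes of -0.22 to -0.17.

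Beside this fall of MYC the 40 genes moved in both directions. In C17.2 10 rose, 5 fell and 25 did not pass the test, where 27.3% of all tested genes were called, 13.4% as rising and 13.9% as falling. All 40 are protein-coding, and of 11210 tested protein-coding genes 17.1% rose and 16.1% fell. The 10 that rose were 25% of the 40, and the 5 that fell were 12.5%. Those that rose were NHP2, WDR12, NOP56, EBNA1BP2, GNL3, UBTF, GAR1, NOP16, NOP2 and TSR1, by 1.20- to 1.39-fold. Those that fell were NOB1, WDR74, NOP14, NPM1 and RRP1B, to between 0.716 and 0.874 of the parental level. The median log2 fold change of the 40 was 0.12, beside a median of 0 over all tested genes, and all 40 values were above that of MYC. So were those of most tested genes, whose lower quartile was -0.20. In C3.2 NOP2 rose and WDR74 fell in the limma fit, and the other 38 genes did not pass. There 11.3% of all tested genes were called, 4.43% as rising and 6.91% as falling. Of the tested protein-coding genes 5.27% rose and 8.09% fell in C3.2. The median of the 40 there was -0.0024, with 20 values above and 20 below 0, and it was 0.063 to 0.099 under the 3 other scalings. The median of all tested genes also moved up under these, to between 0.032 and 0.085. Relative to that median the 40 genes stood at 0.0095 to 0.031. With TPM scaled to the protein-coding total 7 of the 40 rose and none fell, where 10.9% of all tested genes rose and 4.64% fell. On scaled TPM 39 of the 40 values were above that of MYC, the exception being WDR43. Most tested genes were above MYC here too, with a lower quartile of -0.15. At an unadjusted p under 0.05 the limma fit held 21 of the 40 in C17.2 (15 higher and 6 lower), where 39.3% of all tested genes passed, 19.7% as higher and 19.6% as lower. In C3.2 it held 15 (9 higher and 6 lower), where 27.6% of all tested genes passed, 12.6% as higher and 15.1% as lower.

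**Figure D1:**
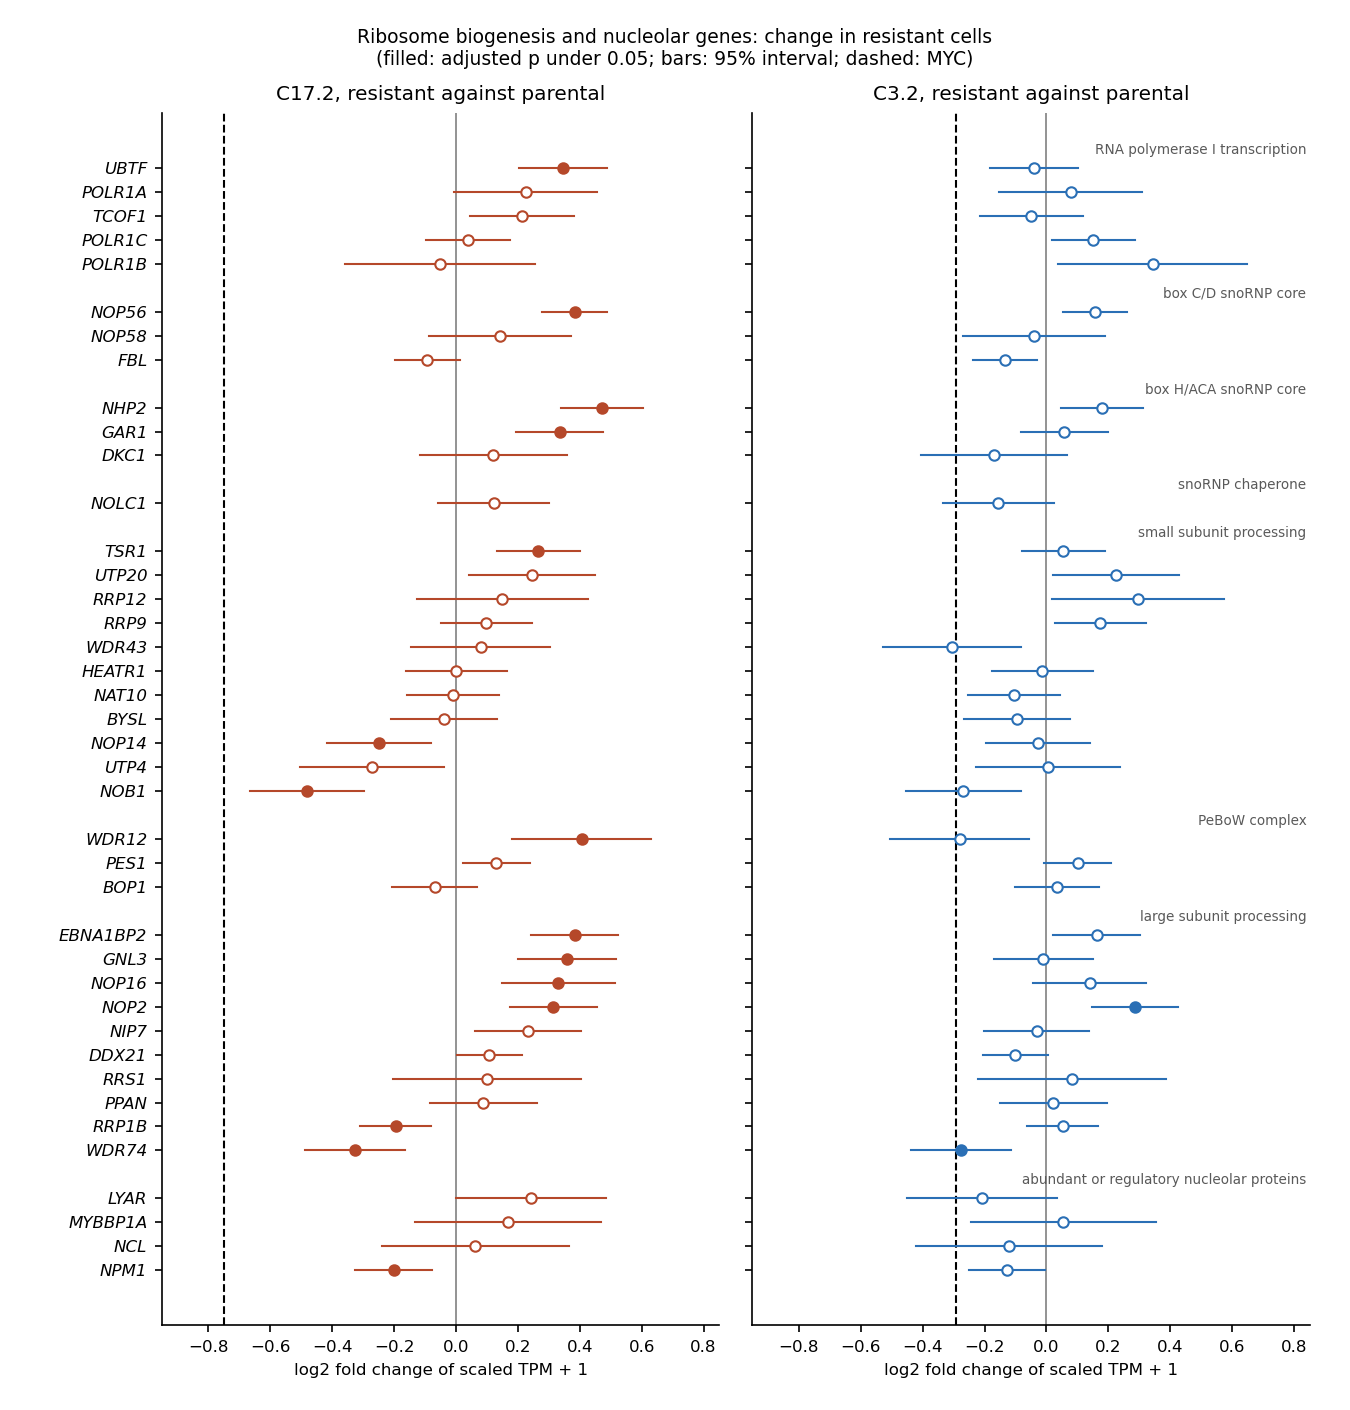
Log2 fold change of scaled TPM + 1 of the 40 genes in resistant against parental cells of C17.2 (left) and C3.2 (right), grouped by role, with 95% intervals from limma. Filled points passed an adjusted p of 0.05 and the dashed line is MYC, at -0.75 and -0.29. In C17.2 10 filled points lie right of 0 and 5 left of it, and in C3.2 there are 2.

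Without library 1 of parental C17.2 5 genes rose and none fell in that clone, where 6.64% of all tested genes rose and 8.59% fell, and without library 2 5 rose and 2 fell, where 7.26% rose and 8.90% fell. Without library 1 of its resistant cells 6 rose and 2 fell, where 8.36% of all genes rose and 10.3% fell, and without library 2 7 rose and 1 fell, where 7.69% rose and 9.16% fell. On TPM as deposited 19 genes rose and 1 fell there, where 24.7% of all tested genes rose and 8.19% fell, while the median of all tested genes also moved up by 0.13, and relative to that median the 40 genes stood at 0.15 in place of 0.12. The 10 rises did not depend on the scaling in sign, while of the 5 falls NPM1 and NOP14 lost their call under all 3 other scalings, RRP1B under 2 and WDR74 under 1, and NOB1 kept it. EBNA1BP2, NHP2 and NOP56 were called in C17.2 under all 16 alternatives of scaling, pseudocount, filter, model and left-out library.

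The E-box CACGTG, the core sequence that MYC with MAX is known to bind, was searched in RefSeq promoter windows of 300 bases on GRCh38.p14, from 250 bases before the annotated start to 50 from it. The word reads the same on both strands. A window was given for 33 of the 40 genes, and 16 of these (48.5%) held the E-box, against 13.1% of 8886 tested protein-coding genes with a window. Of the 43 windows of these genes 17 (39.5%) held the E-box, against 7.26% of all 35116 windows. It was found in 4 of the 10 genes that rose in C17.2, in 1 of the 4 that fell and had a window, and in 11 of the 19 that did not pass and had one (57.9%). Genes with and without the word were thus found in each class. The windows of the 5 called genes that held it are shown, with 3 that were not called for comparison, as 30 bases read 5′ to 3′ on the strand of the gene with the E-box in capitals. A match describes these letters and is not a measured binding site.
GAR1, rose, chr4:109815781-109815810, plus strand: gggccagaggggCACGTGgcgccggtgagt
NOP2, rose, chr12:6568242-6568271, minus strand: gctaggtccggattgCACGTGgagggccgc
GNL3, rose, chr3:52686026-52686055, plus strand: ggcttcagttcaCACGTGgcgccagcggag
EBNA1BP2, rose, chr1:43172790-43172819, minus strand: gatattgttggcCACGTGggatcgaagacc
EBNA1BP2, rose, second window, chr1:43172241-43172270, minus strand: tggcgctggagcgattcggtggCACGTGga
NOP14, fell, chr4:2963374-2963403, minus strand: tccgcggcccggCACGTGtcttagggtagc
FBL, not called, chr19:39846356-39846385, minus strand: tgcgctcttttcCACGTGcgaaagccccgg
UTP20, not called, chr12:101280083-101280112, plus strand: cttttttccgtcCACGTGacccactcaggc
NAT10, not called, chr11:34105602-34105631, plus strand: aatgcgcttgcgCACGTGctgtctaccagt

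The core hexamer was the same in all of these by the search itself. It lay 6 bases after the first base of the transcript in FBL and GNL3, 31 and 35 bases after it in GAR1 and NOP2, and 10 and 15 bases before it in UTP20 and NAT10. The other genes with an E-box were UTP4, WDR43, RRP9, BYSL, PES1, DDX21, LYAR and MYBBP1A, and none of these 8 was called in C17.2.

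By level, the genes spanned more than 2 orders of magnitude per length of transcript. NPM1 had a mean of 1132 TPM over the 8 libraries as deposited, NCL 474 TPM and NOP56 145 TPM, and the other 37 lay below 100 TPM down to 7.13 TPM for RRS1, with a median of 26.5 TPM. Together the 40 took 0.668% to 0.754% of the TPM of protein-coding genes. The levels also differed between the libraries of the clones before any treatment. Library titles of each clone carry a separate run of numbers, so clone and number run cannot be told apart in these levels. In 36 of 40 genes both parental libraries of C3.2 were above both of C17.2, and in 1 they were below, where 32.7% of all tested genes were above and 33.3% below. Among resistant cells 31 genes were above and 2 below, where 29.4% of all tested genes were above and 30% below. The median log2 difference of C3.2 minus C17.2 was 0.31 in parental and 0.18 in resistant cells on scaled TPM. On TPM as deposited it was 0.15 in parental cells and turned to -0.061 in resistant cells, where the median of all genes was -0.22. On that scale 24 genes were above and 5 below in parental cells, where 16% of all tested genes were above and 51.2% below, and 7 were above and 15 below in resistant cells, where 10.4% were above and 59.7% below. On scaled TPM all 10 genes that rose in C17.2 were among the 36 above in parental C3.2, and 7 of them were still above in resistant cells. The parental C17.2 libraries served both to pick these 10 genes and as the reference here, so this count is no separate result. No test was run on the clones' levels.

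Of the 5 genes of RNA polymerase I transcription, UBTF rose in C17.2 and none passed the test in C3.2. UBTF encodes the upstream binding factor that keeps ribosomal RNA genes open and recruits the polymerase, and lies on chromosome 17 of GRCh38, bases 44205033 to 44221626 of the minus strand. In C17.2 it read 46.6 and 47.9 scaled TPM in parental and 57.4 and 63.4 in resistant cells. In C3.2 it read 56.1 and 57.0 in parental and 56.7 and 53.4 in resistant cells. Its groups stood apart in C17.2 and overlapped in C3.2 on scaled TPM. The log2 fold changes were 0.35 (SE 0.06, limma adjusted p = 0.00738) and -0.04 (SE 0.06), where the latter was above 0 under the 3 other scalings (0.03 to 0.06), and their difference of 0.39 (SE 0.08, limma adjusted p = 0.0381) passed the test, which it did under 5 of 15 alternatives.

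POLR1B, the second largest subunit of the polymerase, was not called in either clone. It read 16.7 and 19.6 scaled TPM in parental and 18.4 and 16.5 in resistant C17.2, and 20.4 and 22.5 in parental and 24.5 and 30.7 in resistant C3.2. Its 2 resistant libraries of C3.2 were above both parental ones but far from each other, and the log2 fold change of 0.34 (SE 0.13) had a limma adjusted p of 0.142. The largest subunit POLR1A had log2 fold changes of 0.23 in C17.2 and 0.08 in C3.2, and POLR1C, shared with RNA polymerase III, of 0.04 and 0.15. TCOF1, the treacle protein that works with UBTF, had 0.21 and -0.05. None of these 3 passed in either clone.

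Among core proteins of the snoRNPs, NOP56 rose of the 3 in the box C/D particles, which guide methylation, and NHP2 and GAR1 rose of the 3 in the box H/ACA particles, which guide pseudouridylation. NOP56 (chromosome 20, bases 2652593 to 2658393, plus strand) read 113 and 119.9 scaled TPM in parental and 151 and 153 in resistant C17.2, and 144 and 148 in parental and 162 and 164 in resistant C3.2. The groups stood apart in the same direction in both clones. On the log2 scale the change was 0.38 (SE 0.04, limma adjusted p = 0.00163) in C17.2 and 0.16 (SE 0.04, limma adjusted p = 0.0700) in C3.2, the latter not called.

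FBL, the methyltransferase fibrillarin of the same particle, read 60.1 and 60.9 scaled TPM in parental and 58.1 and 55.3 in resistant C17.2, and 74.9 and 77.9 in parental and 69.8 and 69.3 in resistant C3.2. Resistant cells were lower in both clones with no overlap, yet neither value was called, and the value in C17.2 turned to 0.07 on TPM as deposited. Its log2 fold changes were -0.09 (SE 0.04) and -0.13 (SE 0.04), with limma adjusted p of 0.169 and 0.104. The sister protein NOP58 had 0.14 and -0.04, not called.

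NHP2 (chromosome 5, bases 178149463 to 178153894, minus strand) had the largest rise of the 40 in C17.2. It read 39.1 and 40.6 scaled TPM in parental and 55.8 and 55.4 in resistant C17.2, and 58.4 and 54.6 in parental and 66.4 and 61.9 in resistant C3.2. The groups of each clone stood apart, with resistant cells higher in both. The log2 fold change was 0.47 (SE 0.05, limma adjusted p = 0.00178) in C17.2 and 0.18 (SE 0.05, limma adjusted p = 0.0891) in C3.2. By Gencode 44, 28.0% of its exonic bases are shared with RMND5B on the opposite strand, which read 7.67 to 14.0 TPM with a log2 fold change of -0.37 (limma adjusted p = 0.0767) in C17.2. The strand setting of the counting is not given in the sources used here, so reads of these overlapping genes cannot be told apart.

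GAR1 read 11.2 and 11.5 scaled TPM in parental and 14.3 and 14.8 in resistant C17.2, and 18.8 and 18.4 in parental and 20.3 and 18.5 in resistant C3.2. Its groups stood apart in C17.2 and overlapped in C3.2, with log2 fold changes of 0.33 (SE 0.06, limma adjusted p = 0.0077) and 0.06 (SE 0.06), not called. The difference of the clones, 0.28 (SE 0.08), had a limma adjusted p of 0.0881. DKC1, the pseudouridine synthase dyskerin of the same particle, had log2 fold changes of 0.12 and -0.17, and NOLC1, a chaperone of snoRNPs, of 0.12 and -0.16, all not called.

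The 11 genes of small subunit processing were mixed, with TSR1 rising and NOB1 and NOP14 falling in C17.2 and none passing in C3.2. NOB1 is the endonuclease that makes the last cut of the 18S ribosomal RNA in the cytoplasm. It read 32.1 and 31.4 scaled TPM in parental and 23.6 and 21.4 in resistant C17.2, and 33.1 and 33.1 in parental and 29.3 and 25.5 in resistant C3.2. Resistant cells were lower in both clones, without overlap. The log2 fold change of -0.48 (SE 0.08, limma adjusted p = 0.00571) in C17.2 was the lowest of the 40, and in C3.2 it was -0.27 (SE 0.08, limma adjusted p = 0.0765), not called. An antisense transcript, NQO1-DT, shares 20.4% of its exonic bases and was not among the genes listed.

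NOP14 scaffolds the early small subunit and TSR1 acts late in its maturation. Their log2 fold changes in C17.2 were -0.25 (limma adjusted p = 0.0409) and 0.27 (limma adjusted p = 0.0156), beside -0.03 and 0.05 in C3.2. NOP14 kept its call under 5 of 16 alternatives, and TSR1 under 12. TSR1 shares 23.9% of its exonic bases with the antisense gene SRR, which had log2 fold changes of 0.30 (limma adjusted p = 0.0572) in C17.2 and 0.56 (limma adjusted p = 0.0156) in C3.2.

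UTP20, RRP12 and WDR43 had some of the largest values of C3.2 without passing. UTP20, a large scaffold, read 5.88 and 6.34 scaled TPM in parental and 7.72 and 7.13 in resistant C17.2, and 7.65 and 8.67 in parental and 9.22 and 10.2 in resistant C3.2. It was higher in resistant cells of both clones without overlap, with log2 fold changes of 0.24 (SE 0.08) and 0.22 (SE 0.08) and limma adjusted p of 0.0786 and 0.147. RRP12, an export and processing factor, read 8.85 and 9.83 in parental and 11.9 and 9.15 in resistant C17.2, and 9.50 and 9.48 in parental and 12.1 and 11.6 in resistant C3.2. Its groups overlapped in C17.2 and stood apart in C3.2, where the log2 fold change was 0.30 (SE 0.12, limma adjusted p = 0.158).

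WDR43, a subunit of the complex that binds the 5′ end of the precursor, read 42.4 and 40.9 scaled TPM in parental and 43.5 and 44.7 in resistant C17.2. In C3.2 it read 47.4 and 46.6 in parental and 42.1 and 34.0 in resistant cells, and library 2 of the latter lay well below the other. The log2 fold change of -0.31 (SE 0.09, limma adjusted p = 0.0896) was the lowest of the 40 in that clone, beside 0.08 (SE 0.09) in C17.2. The other members of this step were not called in either clone, with log2 fold changes in C17.2 of -0.27 for UTP4, 0.00 for HEATR1, 0.10 for RRP9, -0.01 for NAT10 and -0.04 for BYSL. In C3.2 these 5 lay between -0.10 and 0.17.

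**Figure D2:**
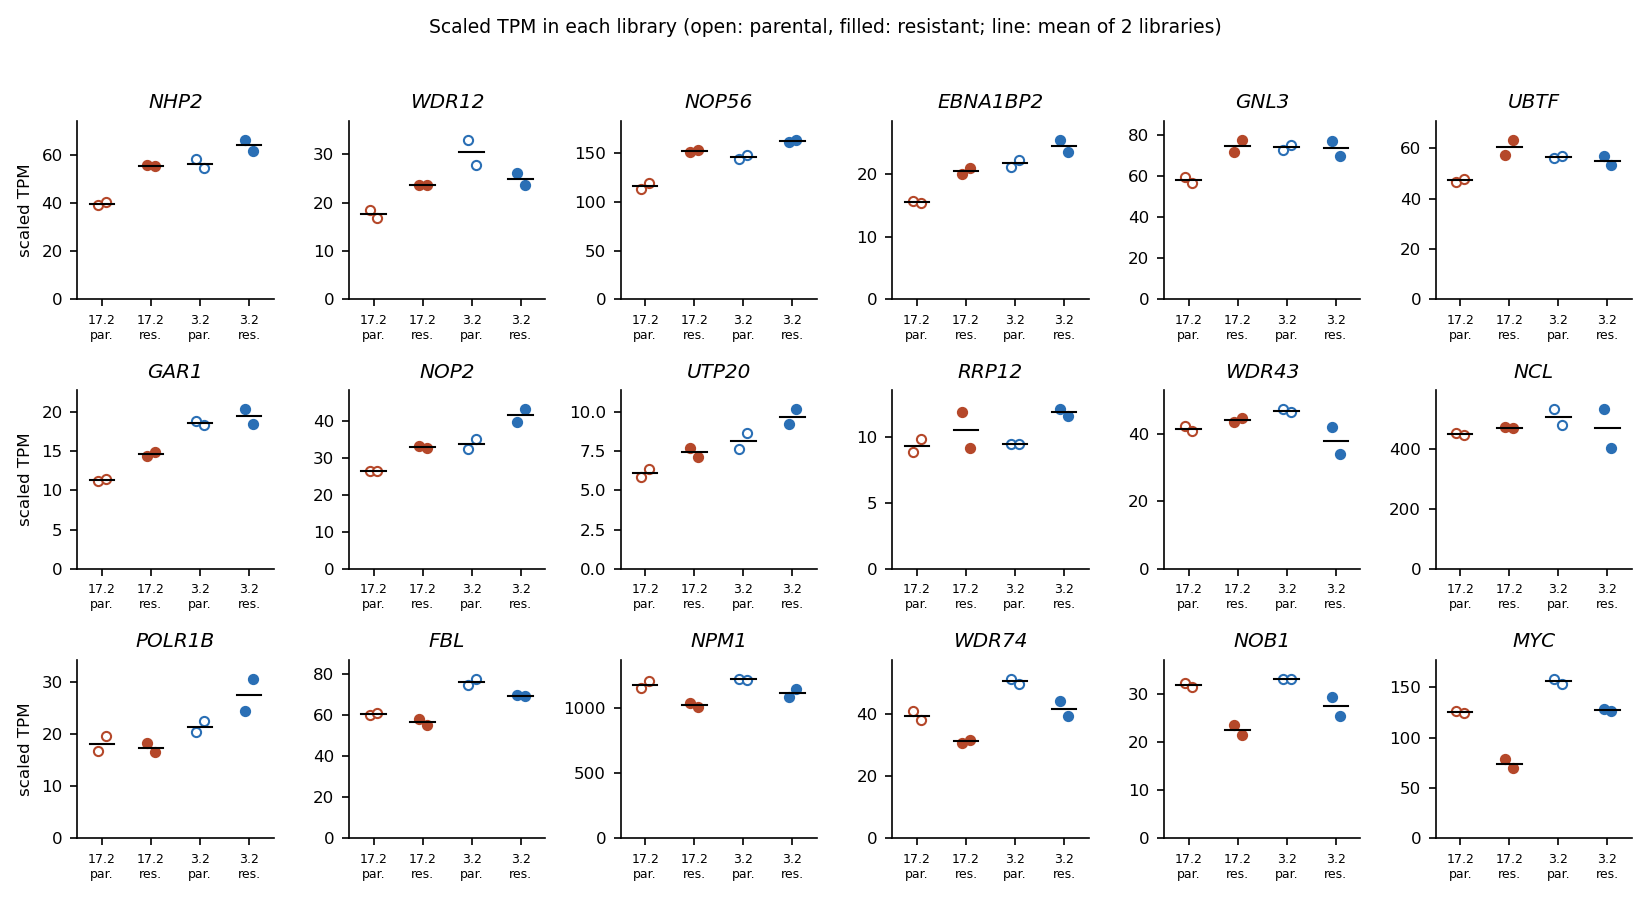
Scaled TPM in each library of the 17 genes given in full and of MYC, ordered by their change in C17.2, with parental (par., open) and resistant (res., filled) cells of both clones and a line at the mean of 2 libraries. WDR12 rises in C17.2 and is lower in resistant C3.2, MYC falls in both, and most genes read higher in the parental libraries of C3.2 than in those of C17.2.

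WDR12 differed most between the clones. With PES1 and BOP1 it forms the PeBoW complex, which is needed to process the large subunit. The gene spans bases 202874261 to 203014798 of chromosome 2 on the minus strand. It read 18.4 and 16.8 scaled TPM in parental and 23.6 and 23.6 in resistant C17.2, and 33.1 and 27.9 in parental and 26.1 and 23.6 in resistant C3.2. The parental libraries of the 2 clones lay far apart and the resistant ones close to each other, with all groups of a clone apart. Clone and number run cannot be told apart in these levels either. On the log2 scale the change was 0.41 (SE 0.09, limma adjusted p = 0.0214) in C17.2 and -0.28 (SE 0.09, limma adjusted p = 0.112) in C3.2. Their difference, 0.69 (SE 0.13, limma adjusted p = 0.0264), passed under 8 of 15 alternatives. PES1 had log2 fold changes of 0.13 and 0.10, and BOP1 of -0.07 and 0.03, all not called.

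**Figure D3:**
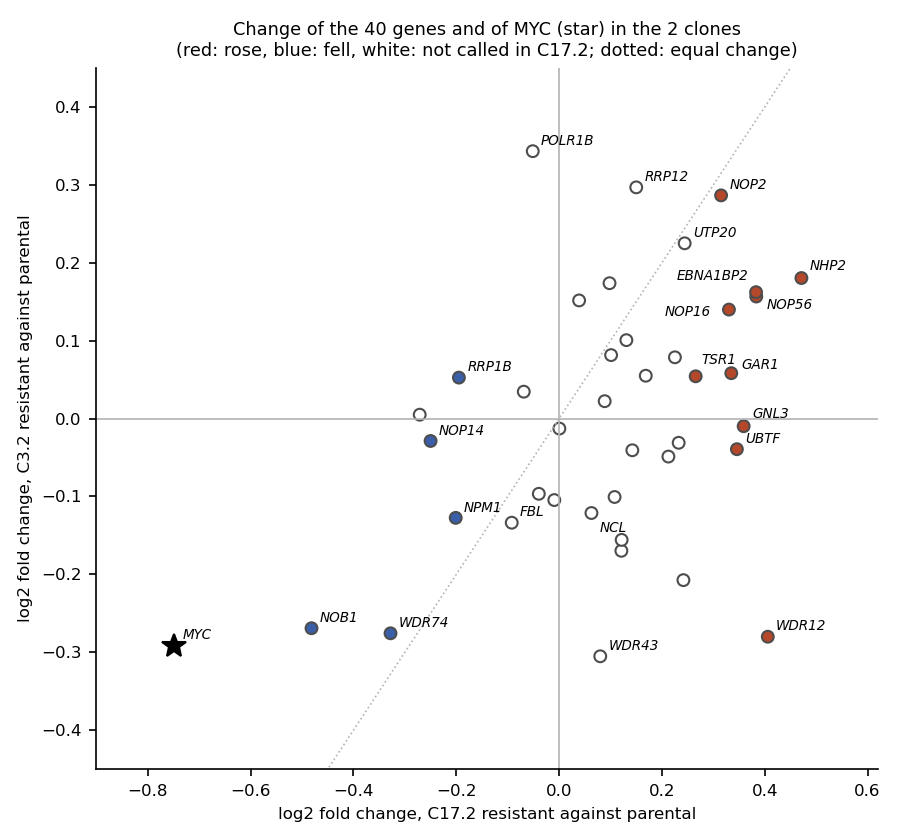
Log2 fold change in C3.2 (vertical) against that in C17.2 (horizontal) for the 40 genes and MYC (star), colored by the call in C17.2, with equal change on the dotted line. WDR12, at 0.41 and -0.28, lies farthest from that line among the 40, and NOP2 and UTP20 lie close to it.

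Of the 10 genes of large subunit processing, EBNA1BP2, GNL3, NOP16 and NOP2 rose and WDR74 and RRP1B fell in C17.2. NOP2 (chromosome 12, bases 6556863 to 6568691, minus strand), a methyltransferase of the 28S ribosomal RNA, was the one gene called as rising in both clones. It read 26.3 and 26.3 scaled TPM in parental and 33.2 and 32.7 in resistant C17.2, and 32.4 and 35.1 in parental and 39.8 and 43.1 in resistant C3.2. All resistant libraries were above all parental ones of their clone. The log2 fold change was 0.32 (SE 0.06, limma adjusted p = 0.00959) in C17.2 and 0.29 (SE 0.06, limma adjusted p = 0.0291) in C3.2, where it kept its call under 6 of 16 alternatives. A listed gene on the same strand that shares 54.4% of its exonic bases was at 0 in all libraries.

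WDR74 (chromosome 11, bases 62832342 to 62841809, minus strand), which helps to remodel the early large subunit, was the one gene called as falling in both. It read 40.9 and 38.0 scaled TPM in parental and 30.8 and 31.6 in resistant C17.2, and 51.3 and 49.7 in parental and 44.0 and 39.2 in resistant C3.2. Resistant cells were below parental ones without overlap in both clones. On the log2 scale the change was -0.33 (SE 0.07, limma adjusted p = 0.014) in C17.2 and -0.28 (SE 0.07, limma adjusted p = 0.0489) in C3.2, the latter kept under 3 of 16 alternatives. WDR74 shares 4.50% of its exonic bases on the same strand with RNU2-2P, a U2 small nuclear RNA gene at 8685 to 12056 TPM, and reads there cannot be told apart. It also shares 5.58% with TEX54 (at most 0.24 TPM) and 12.2% with an antisense transcript that was not among the genes listed.

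EBNA1BP2, a factor of the early large subunit, read 15.6 and 15.3 scaled TPM in parental and 20.0 and 20.9 in resistant C17.2, and 21.2 and 22.3 in parental and 25.5 and 23.4 in resistant C3.2. It was higher without overlap in both clones, with a log2 fold change of 0.38 (SE 0.06, limma adjusted p = 0.00463) in C17.2 and 0.16 (SE 0.06, limma adjusted p = 0.131) in C3.2. It shares 13.7% of its exonic bases with the antisense gene CFAP57, at most 0.12 TPM. GNL3, the nucleolar GTPase nucleostemin, read 59.4 and 56.4 in parental and 71.6 and 77.6 in resistant C17.2, and 72.8 and 74.9 in parental and 77.1 and 69.8 in resistant C3.2. Its groups were apart in C17.2 and overlapped in C3.2. The log2 fold changes were 0.36 (SE 0.07, limma adjusted p = 0.00955) and -0.01 (SE 0.07), and their difference of 0.37 (SE 0.09) had a limma adjusted p of 0.0596.

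NOP16 rose by 0.33 on the log2 scale in C17.2 (limma adjusted p = 0.0214), and RRP1B, a nucleolar partner of a protein phosphatase, fell by 0.19 (limma adjusted p = 0.0261), a call kept under 9 of 16 alternatives. In C3.2 they had 0.14 and 0.05, not called. The other 4 of the large subunit were not called in either clone, at 0.23 and -0.03 for NIP7, 0.11 and -0.10 for the helicase DDX21, 0.10 and 0.08 for RRS1, and 0.09 and 0.02 for PPAN in C17.2 and C3.2. PPAN shares 47.6% of its exonic bases with the read-through gene PPAN-P2RY11, listed at 0.09 to 1.34 TPM.

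NPM1, the abundant nucleolar chaperone nucleophosmin, fell in C17.2. It read 1153 and 1201 scaled TPM in parental and 1039.8 and 1008 in resistant C17.2, and 1223 and 1211 in parental and 1084 and 1144 in resistant C3.2. On scaled TPM resistant cells were lower in both clones without overlap. The log2 fold change was -0.20 (SE 0.05, limma adjusted p = 0.0304) in C17.2, kept under 6 of 16 alternatives and under none of the 3 other scalings (-0.12 to -0.04), and -0.13 (SE 0.05, limma adjusted p = 0.170) in C3.2, where quantile normalization turned it to 0.07. Its 46 listed pseudogenes together read 50.8 to 108 TPM, up to 8.52% of the family, so that its value is uncertain to that extent.

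NCL, nucleolin, the other abundant member, read 452 and 446 scaled TPM in parental and 470.1 and 469 in resistant C17.2, and 531 and 477 in parental and 531 and 403 in resistant C3.2. The 2 resistant libraries of C3.2 enclosed both parental ones. The log2 fold changes were 0.06 (SE 0.12) and -0.12 (SE 0.12), not called. LYAR, a zinc finger protein of the nucleolus, had 0.24 and -0.21, and MYBBP1A, a regulator of polymerase I, had 0.17 and 0.05, also not called.

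Between the clones, UBTF and WDR12 were the 2 genes of the 40 whose change differed in the limma fit, both higher in C17.2, where 9.96% of all tested genes were called, 4.94% as higher and 5.02% as lower. At an unadjusted p under 0.05 there were 15, of which 14 were higher in C17.2 and 1 lower, where 27% of all tested genes passed, 13.9% as higher and 13.1% as lower. Of the 10 genes that rose in C17.2, 7 had a value above 0 in C3.2 and 3 below, in a range from -0.28 to 0.29. The contrasts of the clones share no library, but the model took 1 spread per gene from all groups, so their p-values are not separate. Without library 1 of resistant C3.2, 1 gene rose and 4 fell in that clone, where 3.90% of all tested genes rose and 7.51% fell, and 6 were higher in the difference, where 6% of all genes were higher and 5.16% lower. Without library 2 no member was called by limma in either, where 1.57% of all genes rose and 3.87% fell in C3.2 and 3.68% were higher and 3.79% lower in the difference.

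Each clone's groups were also set side by side library by library. In C17.2 both resistant libraries were above both parental ones in 24 of 40 genes and below them in 8, where 33.2% of all tested genes were above and 32.8% below. In C3.2 the counts were 12 and 11, where 27.7% were above and 28.2% below. The 12 and 11 of C3.2 are 30% and 27.5% of the 40, close to those shares of all genes, and the 24 of C17.2 are 60%. On TPM as deposited 32 were above and 4 below in C17.2, where 49.2% of all tested genes were above and 18.7% below, and 14 were above and 5 below in C3.2, where 36.6% were above and 19% below.

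A wider list of 145 other ribosome biogenesis genes, all tested, was read from the same fit. In C17.2 39 rose (26.9%) and 6 fell (4.14%), with a median log2 fold change of 0.093, where the 40 had 0.12. Of all tested genes 13.4% rose and 13.9% fell in that clone, and of the protein-coding ones 17.1% rose and 16.1% fell. On TPM as deposited 62 of the 145 rose and 2 fell there (median 0.24). With TPM scaled to the protein-coding total of each library 57 rose and 4 fell (median 0.17). Under these 2 scalings 24.7% and 20.1% of all tested genes rose and 8.19% and 11% fell, with medians of 0.13 and 0.069. In C3.2 4 rose and 4 fell, with a median of 0.013, where 4.43% of all tested genes rose and 6.91% fell. With the protein-coding scaling 18 rose and 3 fell (median 0.11), where 10.9% of all tested genes rose and 4.64% fell (median 0.085). The highest values in C17.2 belonged to subunits of RNA polymerases, POLR1E at 1.16 (SE 0.05, limma adjusted p = 4.39e-05), POLR2L at 0.75 and POLR2F at 0.63, of which the last 2 are shared with RNA polymerase II. POLR1E, a polymerase I subunit linked to initiation, also rose in C3.2, by 0.45 (limma adjusted p = 0.00427), with CD3EAP, its partner in the polymerase, at 0.42 and PWP2 at 0.57. Of the 16 others of polymerase I transcription 9 rose and 2 fell in C17.2.

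Among the genes called in each clone, the deepest fall in both was that of RSL24D1, which holds the place of a ribosomal protein on the large subunit in the nucleolus, at -0.94 (limma adjusted p = 4.72e-05) and -0.50 (limma adjusted p = 0.0015). RSL1D1 fell by 0.44 and 0.45, POLR1D, shared with RNA polymerase III, fell by 0.51 in C17.2, and KRR1 fell by 0.31 in C3.2. RSL24D1 and POLR1E differed between the clones, by -0.43 and 0.71 (limma adjusted p of 0.00796 and 0.00308), as did POLR2L and TRMT112, which stabilizes methyltransferases of ribosomal RNA, by 0.74 and 0.59.

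Other targets of MYC were read beside them. Of 28 tested outside ribosome biogenesis 14 rose and 3 fell in C17.2 (median 0.18), and 1 rose and 2 fell in C3.2. Of all tested genes 13.4% rose and 13.9% fell in C17.2, and 4.43% rose and 6.91% fell in C3.2. Of the protein-coding ones 17.1% rose and 16.1% fell in C17.2, and 5.27% rose and 8.09% fell in C3.2. The median of the 28 in C3.2, -0.043, was 0.024 on deposited TPM, 0.061 with the protein-coding scaling and 0.056 after quantile normalization. That of all tested genes was 0.053, 0.085 and 0.032 in that order. HSPE1, a mitochondrial chaperonin, rose most in C17.2, by 0.94, and LDHA, lactate dehydrogenase, rose by 0.65, while SHMT2, of serine and folate metabolism, fell by 1.55 on the log2 scale. The 76 genes of cytosolic ribosomal proteins, the parts that these factors assemble, were counted in the same fit. In C17.2 57 of them fell and 1 rose (median -0.31), and in C3.2 46 fell and 1 rose (median -0.30). Between the clones 1 of 76 in each direction differed, where 4.94% of all tested genes were higher and 5.02% lower. Under the other scalings the medians stayed below 0, at -0.22 to -0.095 in C17.2 and -0.23 to -0.10 in C3.2, and 14 to 40 and 7 to 28 genes fell. Of all tested genes 8.19% to 12.5% fell in C17.2 under these scalings and 3.35% to 4.89% in C3.2. Their medians were 0.026 to 0.13 and 0.032 to 0.085.

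**Figure D4:**
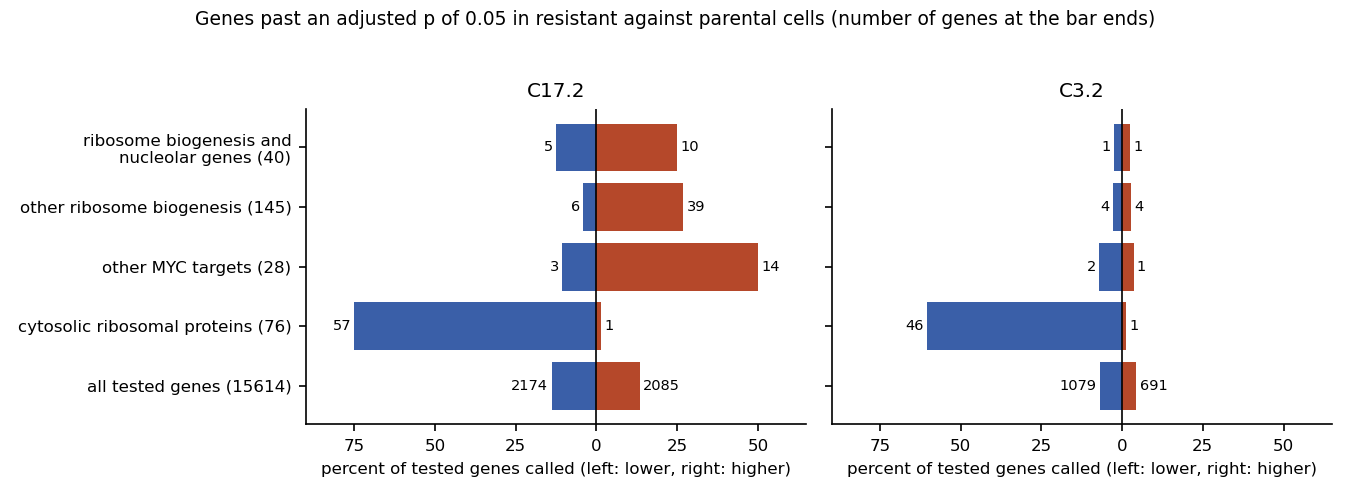
Percent of tested genes past an adjusted p of 0.05 in resistant against parental cells of C17.2 (left) and C3.2 (right), lower to the left and higher to the right of 0, with the number of genes at each bar. The bars of the 40 genes and of the 145 others lean to the right in C17.2 and are short in C3.2, while those of the 76 genes of ribosomal proteins reach 75% and 60.5% on the left.

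Host genes among the 40 also carry snoRNAs inside them. By Gencode 44, 28 snoRNA genes lie in 9 of the 40, and 7 of these passed the filter on low values. None was called in either clone by limma. At an unadjusted p under 0.05 there were 2 of the 7 in C17.2, where 39.3% of all tested genes passed. In C3.2 there were none, where 27.6% of all tested genes passed. The 2 were SNORA56 of DKC1 and SNORA51 of NOP56, at log2 values of -2.63 and -2.02 in C17.2 and of 2.22 and 0.92 in C3.2. Their mean levels were 5.62 and 15.7 TPM, and both share bases with exons of their hosts.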

How the data were processed

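RNA-seq of CTCF-AID2 SEM cells was analyzed in 4 groups of 2 libraries. The authors used Trim Galore 0.6.3 on the reads, STAR 2.7.9a for alignment (build GRCh38.p13) and RSEM 1.3.1 with Gencode 31 for the TPM that they deposited, which were not scaled across libraries. Since TPM holds no depth, precision is known only from the spread of 2 libraries. Per the labels reads were single-end, while the methods of the study give paired ends.

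A gene was tested if any library had it at 1 TPM or more (15614 genes). Library factors were trimmed means of log2 ratios to the mean library (30% of ratios and 5% of means trimmed from each end). Log2(scaled TPM + 1) was fitted in limma 3.58.1 (R 4.3.3) with the 4 groups in 1 model and eBayes with an intensity trend, and p-values, two-sided, were adjusted by Benjamini-Hochberg over all tested genes (threshold 0.05). Fold changes are on this scale and understate changes of low genes. The study itself used limma-voom, which takes counts and could not be run on TPM. Resistant cells were compared with parental cells of their clone, and the changes of both clones with each other. MYC was also tested by an exact permutation test.

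The 40 genes and all lists were chosen with earlier results of these data known. The list of ribosomal protein genes, the levels set between clones and the lists under other scalings were added after the values were seen. Values in every library were given for genes whose change differed between the clones, the 8 with the largest change of either clone and the 6 with the highest TPM (17 in all), and of the 145 other ribosome biogenesis genes up to 3 rises and 3 falls per clone were named. POLR1E, RSL24D1, POLR2L and TRMT112 in the difference, and HSPE1, LDHA and SHMT2, were named after their values were seen, as were the 2 snoRNAs. Lists of MYC network genes, other MYC targets, p53 targets and cell markers were counted in the same way, with no set test. Positions, overlaps and nested snoRNAs came from Gencode 44 on GRCh38, matched by gene identifier for all 40, and promoter windows from RefSeq on GRCh38.p14 for 33. Tested on data simulated for C17.2, with 15614 genes of which 200 changed, the fit recovered 15% of changes of 0.3 and 91% of changes of 1 on the log2 scale, with 6.19% of calls false. In the data themselves 4259 genes were called, and the adjustment depends on how many genes change, so these shares do not carry over. Tables and plots used Python 3.11.15, pandas 2.3.3 and matplotlib 3.10.9.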

Additional observations from a re-analysis of the deposited data

Results flagged for a closer look

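WDR12, UBTF and MYC were flagged because their change in resistant cells differed between the clones by the test of the difference itself in limma. WDR12 and UBTF were the 2 called of the 40 genes (5%), both as higher in C17.2. Of all tested genes 9.96% were called there, 4.94% as higher and 5.02% as lower. The 40 genes as a set thus held no excess of such calls. WDR12 differed by 0.69 on the log2 scale (limma adjusted p = 0.0264), with both resistant libraries above both parental ones in C17.2 and below them in C3.2. UBTF differed by 0.39 (limma adjusted p = 0.0381), with groups that overlapped in C3.2. MYC differed by -0.46 (limma adjusted p = 0.0226) and was lower in resistant cells in 2 of 2 clones. The lowest to highest adjusted p over 15 alternatives were 0.014 to 0.107 for WDR12, 0.0264 to 0.127 for UBTF and 0.0106 to 0.0922 for MYC. Clone and CTCF mutation cannot be told apart in these differences.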

How the results depend on the processing

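The depth of the libraries is unknown, and 2 libraries a group limit precision. The simulation recovered 15% of changes of 0.3, but it changed 200 genes where 4259 were called in C17.2. The adjustment of p depends on how many genes change, so that share does not carry over to these data. No paired analysis was possible because parental and resistant libraries of a clone share no library number in the labels. No called gene of the 40 changed sign under any alternative. In C17.2 the count of called genes (15) was 13 to 20 under the processing alternatives and 5 to 15 with 1 library left out, and the count over all genes 2378 to 4548 with 1 left out. Its split of 10 rising and 5 falling was 19 and 1 on deposited TPM, 15 and 2 with TPM scaled to the protein-coding total (rescaled) and 10 and 3 after quantile normalization, and the share of all calls that rose was 49%, 75.1%, 64.5% and 54.1% in that order. The median of the 40 moved from 0.12 to 0.28 (deposited) and 0.21 (rescaled), and that of all tested genes from 0 to 0.13 and 0.069. In C3.2 the 2 calls became 1 (deposited), 7 (rescaled) and 0 with no filter on low values, without an intensity trend and with each clone alone, and 0 to 5 with 1 library left out, 5 without resistant library 1 and 0 without any other. The median of the 40 was 0.063 (deposited), 0.099 (rescaled) and 0.063 (quantile), where that of all tested genes was 0.053, 0.085 and 0.032. With 1 library left out the median of the 40 was -0.063 to 0.032. All genes called (1770) were 1170 with no filter, 74 with the clone alone and 324 to 1782 with 1 left out, lowest without parental library 1 and 397 without parental library 2. The fall of MYC lost its call at -0.22 (deposited), -0.19 (rescaled), -0.17 (quantile), -0.30 (no filter), -0.29 (no trend) and -0.29 (clone alone), with limma adjusted p of 0.0527 to 0.125, and spanned -0.31 to -0.27 with 1 library left out, where the call held without resistant library 1 or 2 of C17.2 and was lost without any of the other 6. In the difference between the clones the 2 calls became 1 (deposited), 1 (quantile), 1 (no trend) and 0 (no filter), and 0 to 6 with 1 left out. Its median (0.10) was 0.20 on deposited TPM and 0.056 to 0.17 with 1 left out. All genes called (1555) were 545 to 1743 with 1 left out. The difference of MYC was -0.36 on deposited TPM (limma adjusted p = 0.071) and -0.54 to -0.38 with 1 left out, where its call was lost without 5 of the 8 libraries (limma adjusted p of 0.0516 to 0.0922). Lost and gained calls move with fewer samples or another scaling by construction, and no other cause was tested.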

Other observations

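Genes around MYC and p53 were counted in the same fit, where 13.4% of all tested genes rose and 13.9% fell in C17.2. In C3.2 these shares were 4.43% and 6.91%. Of 10 tested genes of the MYC network 1 rose (MGA) and 3 fell (MYC, MXI1 and MXD4) in C17.2, and MYC alone fell in C3.2. Of 16 tested p53 targets, genes that p53 can induce when ribosome assembly is disturbed, 7 rose and 4 fell in C17.2, and 3 rose and 5 fell in C3.2. MDM2, the ligase that holds p53 down, had log2 fold changes of 0.54 (limma adjusted p = 0.00228) in C17.2 and -0.07 in C3.2. CDKN1A, which stops the cell cycle, fell by 0.52 and 0.46. TIGAR rose by 0.83 and 0.58, and SESN2 fell by 2.66 and 1.23. The named genes of this paragraph were chosen after their values were seen.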
